A study of Danio rerio with 18 samples.

Results

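Transcripts made by oocytes were followed through whole zebrafish that carry the kif7co63 allele. The genes named for their place in the oocyte were buc, figla, gdf9, bmp15, zar1, nobox, zp3b, zp2.5 and h1m. The deposited count table held 8 of these 9 by symbol among its 31901 genes. The gene nobox was not analysed here. The 9 were selected on their read levels in these same libraries, which were known, so the levels, fold changes and counts of calls of the 8 genes are descriptions. The calls below rest on p-value thresholds, but for genes selected in this way they are not read as tests. None of the 8 symbols is shared with another identifier in the table.

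An oocyte builds up, long before fertilisation, the RNA and protein that carry the embryo until its own genome is switched on. A small set of transcription factors turns on genes of the egg coat and of oocyte growth, the growing cell gathers germ plasm into a Balbiani body, and it sends growth factors to the somatic cells around it. In zebrafish juveniles the gonad first passes through a stage with immature oocytes and later becomes an ovary or a testis, so the amount of oocyte RNA in a whole fish can be very different from animal to animal of one age.

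Libraries were made from whole animals. At 6 weeks past fertilisation (wpf) each library came from 1 fish, with 3 scoliotic kif7co63/co63 fish, 3 non-scoliotic kif7co63/co63 fish, 3 kif7co63/+ fish and 3 wild-type fish of the AB strain, and at 4 days past fertilisation (dpf) from pools of 20 embryos, with 2 pools each of kif7co63/co63, kif7co63/+ and AB. kif7 encodes a kinesin of the cilium tip that acts in Hedgehog signalling, and kif7co63 is a combined deletion and insertion in its coding sequence, made by CRISPR-Cas9 and bred to homozygosity by in-crossing. All homozygous and heterozygous fish carry this 1 allele, which no AB fish carries, and the labels give neither the parents of a fish nor its sex, gonad stage or body size. The fish within a group are named fish 1, 2 and 3 by the number in their label.

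Library totals ran from 44503110 to 69698533 counts. Levels are given as CPM, the reads of a gene scaled to a common library size by TMM over all 18 libraries, and per kilobase of the gene length in the table where genes are set against each other. kif7 itself was at 25.9 to 28.8 CPM in scoliotic fish, 25.5 to 29.8 CPM in non-scoliotic fish and 23.6 to 32.3 CPM in kif7co63/+ fish, against 41.7 to 47.7 CPM in AB fish. Markers of muscle, liver, blood, exocrine pancreas, neurons and bone matrix were detected in all 12 fish (ckma, fabp10a, hbba1, prss1, elavl3 and col1a1a). In the same fish mylpfa stayed at or below 3.22 CPM and epcam at or below 0.0843 CPM. Whether such low levels come from the tissue or from the counting was not tested. The 2 kif7co63/co63 pools of 4 dpf stood apart, with a median absolute log2 difference of 0.49 between them over genes, against 0.145 to 0.228 between other libraries of one group.

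Among the fish of 6 wpf, oocyte transcripts were lowest in the homozygous fish and differed widely from one homozygous fish to the next. Summed over the 8 genes, scoliotic fish 1, 2 and 3 had 279, 2.19 and 23.0 CPM and non-scoliotic fish had 697, 1.43 and 124 CPM. The kif7co63/+ fish had 2004, 1613 and 2809 CPM, and the AB fish had 2808, 3159 and 3227 CPM. Every homozygous fish lay below every kif7co63/+ and AB fish, kif7co63/+ fish 3 was level with AB fish 1, and within each homozygous group the sum differed between fish far more than it did between AB fish. As shares of all counts these sums came to 0.0257, 0.000205 and 0.00204% in scoliotic fish, 0.0623, 0.00013 and 0.0108% in non-scoliotic fish, 0.192, 0.156 and 0.272% in kif7co63/+ fish and 0.282, 0.304 and 0.326% in AB fish. In RNA from whole fish, fewer oocytes and less RNA per oocyte cannot be told apart.

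**Figure D1:**
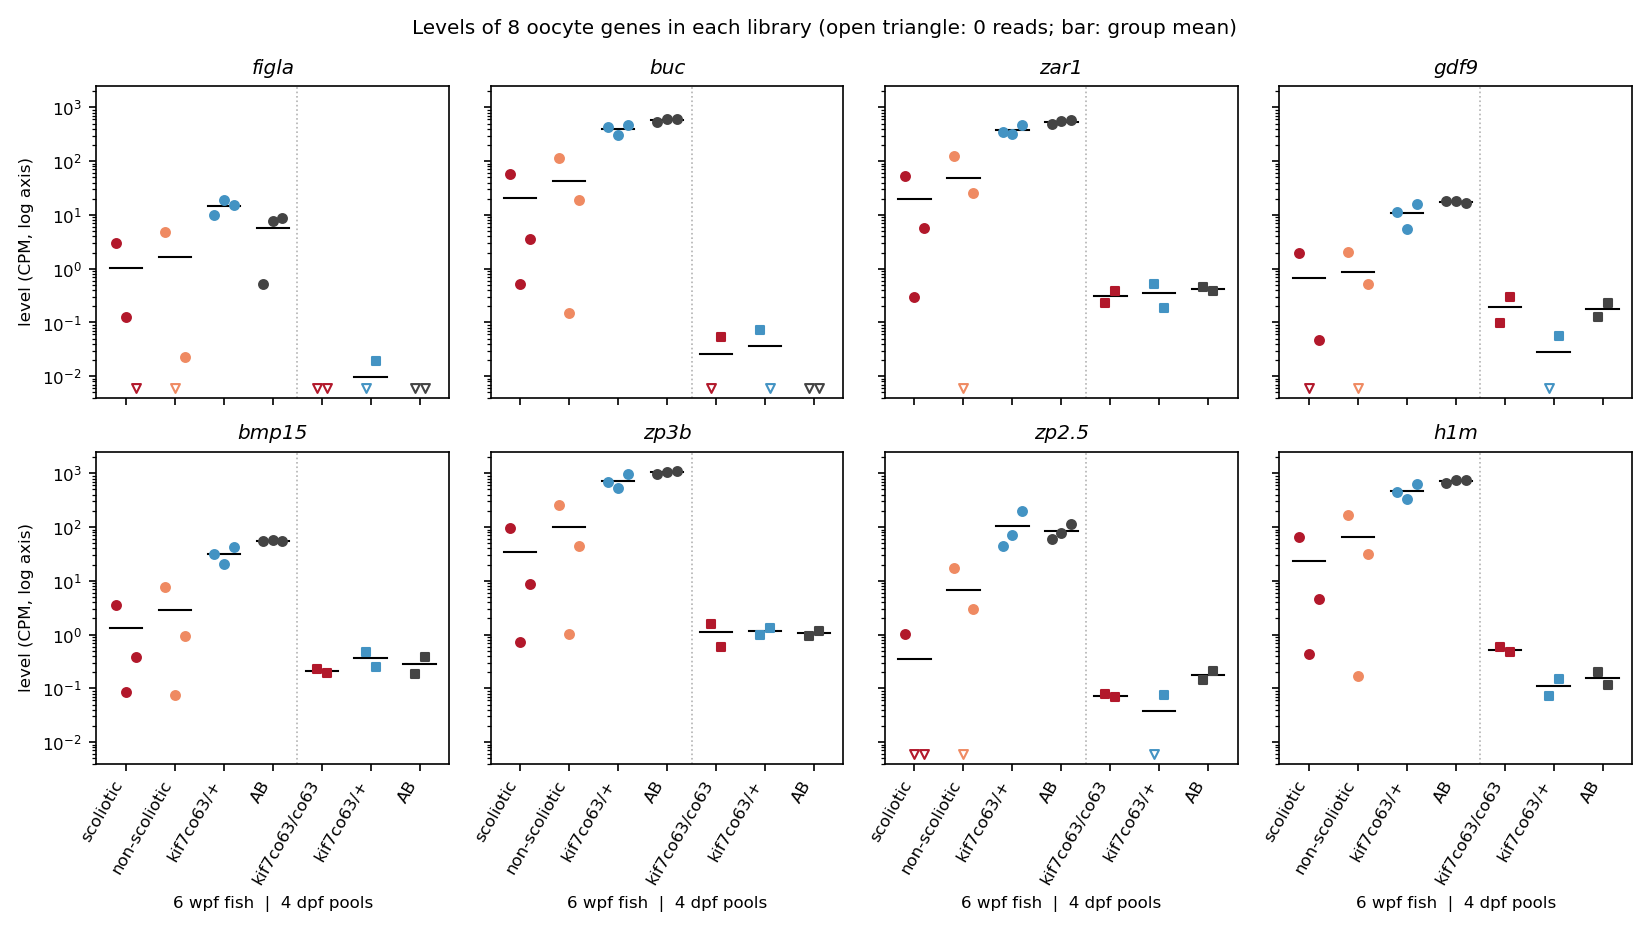
Level of each of the 8 oocyte genes in every library, in CPM on a log axis, with 6 wpf fish as circles left of the dotted line and 4 dpf pools as squares right of it; open triangles stand for 0 reads and bars for group means. For zp3b the scoliotic fish spread from 0.731 to 94.7 CPM and the non-scoliotic fish from 1.03 to 262 CPM, while the AB fish stayed between 971 and 1108 CPM.

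figla (ENSDARG00000087166, GRCz11 chromosome 5, 13839316 to 13848296, minus strand, protein coding) encodes a basic helix-loop-helix transcription factor that is required for ovary formation in zebrafish and turns on egg coat genes in the mouse. It had 131, 6 and 0 reads in scoliotic fish 1, 2 and 3 and 305, 0 and 1 reads in non-scoliotic fish, against 482, 937 and 787 reads in kif7co63/+ fish and 30, 462 and 614 reads in AB fish. In CPM this was 2.94, 0.129 and 0 in scoliotic fish, 4.90, 0 and 0.0231 in non-scoliotic fish, 10.2, 18.7 and 15.1 in kif7co63/+ fish and 0.520, 7.79 and 8.78 in AB fish. figla was the only one of the 8 genes for which an AB fish, fish 1, fell among the homozygous fish, and all 3 kif7co63/+ fish lay above all 3 AB fish. A count of 0 in a fish allows up to 3 reads, so that its level could not be told from that of non-scoliotic fish 3 at this depth.

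buc (ENSDARG00000096095, chromosome 2, 27855102 to 27859558, plus strand, protein coding) encodes Bucky ball, which organises the Balbiani body and germ plasm. Its reads were 2576, 24 and 152 in scoliotic fish, 6989, 8 and 803 in non-scoliotic fish, 20099, 15302 and 25100 in kif7co63/+ fish and 30792, 36830 and 42584 in AB fish. The levels were 57.9, 0.516 and 3.59 CPM in scoliotic fish, 112, 0.153 and 18.6 CPM in non-scoliotic fish, 424, 306 and 481 CPM in kif7co63/+ fish and 533, 621 and 609 CPM in AB fish. The highest of the homozygous fish, non-scoliotic fish 1, was below the lowest kif7co63/+ fish, and every kif7co63/+ fish was below every AB fish.

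zar1 (ENSDARG00000019706, chromosome 20, 23423814 to 23426339, minus strand, protein coding) encodes an RNA-binding protein that holds maternal transcripts back from translation in zebrafish oocytes. It had 52.2, 0.301 and 5.72 CPM in scoliotic fish, 123, 0 and 25.5 CPM in non-scoliotic fish, 349, 327 and 477 CPM in kif7co63/+ fish and 496, 560 and 575 CPM in AB fish. Non-scoliotic fish 2 had no zar1 read, while non-scoliotic fish 1 had 7650, a level at least 2144-fold higher with a floor of 3 reads for fish 2.

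gdf9 and bmp15 encode ligands of the TGF-beta family that oocytes secrete to the follicle cells around them. gdf9 (ENSDARG00000003229, chromosome 14, 22457230 to 22464183, plus strand, protein coding) had 88, 0 and 2 reads in scoliotic fish and 130, 0 and 22 in non-scoliotic fish, against 530, 275 and 828 in kif7co63/+ fish and 1049, 1092 and 1148 in AB fish. Its levels were 1.98, 0 and 0.0472 CPM in scoliotic fish, 2.09, 0 and 0.509 CPM in non-scoliotic fish, 11.2, 5.50 and 15.9 CPM in kif7co63/+ fish and 18.2, 18.4 and 16.4 CPM in AB fish. The 3 AB fish differed by 1.12-fold and the kif7co63/+ fish by 2.88-fold, and these 2 groups did not overlap, while the scoliotic and non-scoliotic fish did.

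bmp15 (ENSDARG00000037491, chromosome 7, 51768343 to 51775688, minus strand, protein coding) is needed in zebrafish for oocytes to grow past their early stages. It had 158, 4 and 16 reads in scoliotic fish, 474, 4 and 41 in non-scoliotic fish, 1519, 1034 and 2212 in kif7co63/+ fish and 3169, 3451 and 3804 in AB fish. This gave 3.55, 0.086 and 0.378 CPM in scoliotic fish, 7.61, 0.0764 and 0.949 CPM in non-scoliotic fish, 32.01, 20.7 and 42.4 CPM in kif7co63/+ fish and 54.9, 58.2 and 54.4 CPM in AB fish. As for gdf9, fish 1 was the highest and fish 2 the lowest in each homozygous group, and every AB fish lay above every kif7co63/+ fish.

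The egg coat genes zp3b and zp2.5 belong to the zona pellucida protein families, which are present in many tandem copies in zebrafish. Reads of near-identical copies can be split or dropped by counting, so the levels of both are uncertain to that extent. zp3b (ENSDARG00000039828, chromosome 2, 6253246 to 6258796, plus strand, protein coding) had 4217, 34 and 365 reads in scoliotic fish, 16342, 54 and 1905 in non-scoliotic fish, 32537, 26406 and 49814 in kif7co63/+ fish and 56024, 62910 and 77483 in AB fish. Its levels were 94.7, 0.731 and 8.62 CPM in scoliotic fish, 262, 1.03 and 44.1 CPM in non-scoliotic fish, 686, 528 and 954 CPM in kif7co63/+ fish and 971, 1060 and 1108 CPM in AB fish. The order of the groups and of the fish within the homozygous groups was that of buc, with kif7co63/+ fish 3 just under AB fish 1.

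zp2.5 (ENSDARG00000086522, chromosome 20, 54312970 to 54316972, plus strand, protein coding) departed from this order. It had 46, 0 and 0 reads in scoliotic fish and 1059, 0 and 130 in non-scoliotic fish, against 2114, 3630 and 10563 in kif7co63/+ fish and 3533, 4625 and 8066 in AB fish. Its levels were 1.03, 0 and 0 CPM in scoliotic fish, 17, 0 and 3.01 CPM in non-scoliotic fish, 44.6, 72.6 and 202 CPM in kif7co63/+ fish and 61.2, 78.0 and 115 CPM in AB fish. The highest and the lowest of these last 6 fish were both kif7co63/+, so the 2 groups overlapped, whereas scoliotic fish 1 was lower for zp2.5 than non-scoliotic fish 3, which it exceeded for every other member.

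h1m (ENSDARG00000102892, chromosome 5, 68326858 to 68333081, minus strand, protein coding) encodes the maternal linker histone that packs the chromatin of germ cells and early embryos. Its reads were 2876, 20 and 198 in scoliotic fish, 10474, 9 and 1353 in non-scoliotic fish, 21284, 16731 and 32440 in kif7co63/+ fish and 38835, 44806 and 51758 in AB fish. The levels were 64.6, 0.430 and 4.68 CPM in scoliotic fish, 168, 0.172 and 31.3 CPM in non-scoliotic fish, 449, 335 and 621 CPM in kif7co63/+ fish and 673, 755 and 740 CPM in AB fish. The highest fish was 150-fold above the lowest among scoliotic fish and 979-fold among non-scoliotic fish, against 1.86-fold among kif7co63/+ fish and 1.12-fold among AB fish.

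Per kilobase of gene length, the AB fish of 6 wpf had most of zp3b, at 564 ± 37.5 CPM per kb (SD, n = 3), then zar1 at 412 ± 31.8, h1m at 353 ± 21.4 and buc at 187 ± 15.1 CPM per kb. The ranges of the neighbours zar1 and h1m over the 3 fish, 376 to 436 and 329 to 369 CPM per kb, did not overlap. The other 4 genes followed with 59.9 ± 19.6 CPM per kb for zp2.5, 23.8 ± 0.874 for bmp15, 8.42 ± 0.520 for gdf9 and 5.08 ± 4.02 for figla. Of all neighbours in this order only gdf9 and figla overlapped, and only just, with 7.82 to 8.77 CPM per kb for gdf9 and 0.463 to 7.82 CPM per kb for figla.

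Some members kept their proportions to each other across fish with very different totals. In the 9 fish with at least 1000 zp3b reads (scoliotic fish 1, non-scoliotic fish 1 and 3, and all kif7co63/+ and AB fish), h1m had 63.4 to 71.2 reads per 100 zp3b reads, a coefficient of variation of 4.35%. zar1 had 46.8 to 61.8 reads per 100 zp3b reads (8.48%) and buc 42.2 to 61.8 (13.6%). In scoliotic fish 1, which had 4217 zp3b reads, the values were 68.2 for h1m, 55.1 for zar1 and 61.1 for buc, inside the range of the 3 AB fish for h1m and slightly above it for zar1 and buc.

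Among the less abundant members the proportions varied more. bmp15 had 2.15 to 5.66 reads per 100 zp3b reads (coefficient of variation 27.5%), with the AB fish highest at 4.91 to 5.66 and both non-scoliotic fish lowest at 2.90 and 2.15. gdf9 had 0.795 to 2.09 (28.0%), with scoliotic fish 1 highest and non-scoliotic fish 1 lowest. zp2.5 had 1.09 reads per 100 zp3b reads in scoliotic fish 1, 6.48 and 6.82 in non-scoliotic fish 1 and 3, 6.50, 13.7 and 21.2 in kif7co63/+ fish and 6.31, 7.35 and 10.4 in AB fish (64.6%). figla had 3.11 in scoliotic fish 1, 1.87 and 0.0525 in non-scoliotic fish 1 and 3, 1.48, 3.55 and 1.58 in kif7co63/+ fish and 0.0535, 0.734 and 0.792 in AB fish (84.0%), so that it was the least tied to zp3b.

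**Figure D2:**
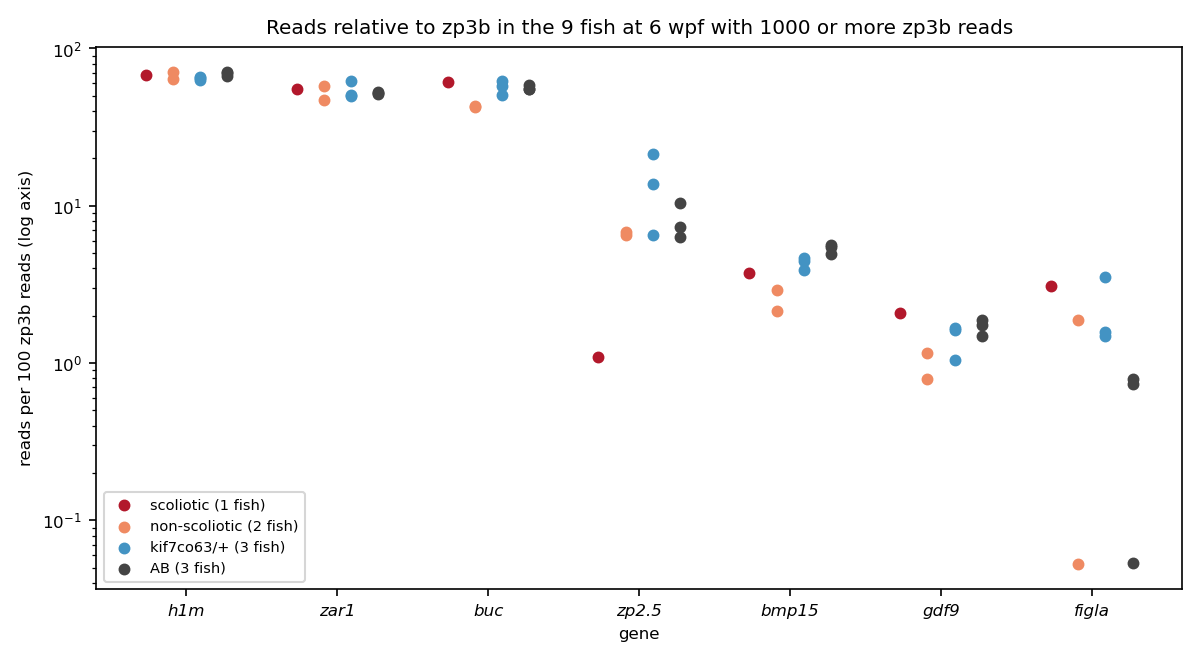
Reads of 7 oocyte genes per 100 zp3b reads, on a log axis, in the 9 fish of 6 wpf with 1000 or more zp3b reads, each point a fish and each colour a group. h1m, zar1 and buc lie in narrow bands between 42.2 and 71.2, while zp2.5 runs from 1.09 in scoliotic fish 1 to 21.2 in kif7co63/+ fish 3 and figla from 0.0525 to 3.55.

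Over all 12 fish of 6 wpf, the 21 pairs among the 7 members other than figla had Pearson correlations of log2 CPM between 0.924 and 0.998 (median 0.978), and the 7 pairs with figla between 0.793 and 0.84. Over the 6 homozygous fish alone these ranges were 0.834 to 0.997 and 0.665 to 0.826. Each point is a fish whose genes share 1 library and its depth, and the points include the differences between groups, so these values describe the libraries only.

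The homozygous fish with and without curvature were compared first, which is the comparison of the study that holds genotype constant. Scoliotic fish averaged 34.7 ± 52.1 CPM of zp3b and non-scoliotic fish 102 ± 140 CPM (SD, n = 3 each), and the ranges of the 2 groups overlapped for all 8 members. Of the 8, 7 passed the filter on low counts, and edgeR's quasi-likelihood test called 0 of them at a Benjamini-Hochberg adjusted p under 0.05, with 0 at an unadjusted p under 0.05 and 0 called by DESeq2, where 0.38% of all genes tested were called in either direction. All 7 log2 fold changes were below 0, with a median of -1.34 against 0.00354 over all genes tested, and standard errors from 1.63 to 2.22. zp2.5 had the lowest, -4.25 (standard error 2.22), and gdf9 the highest, -0.35 (standard error 1.89). Without non-scoliotic fish 1, 6 of the 7 log2 fold changes turned positive, from 0.575 for h1m to 1.43 for gdf9, and without scoliotic fish 2 or fish 3 that of gdf9 was 0.22 or 0.19.

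Against AB, scoliotic fish had 0.0332 times the mean level of zp3b, 0.0322 times that of h1m, 0.0352 times that of buc, 0.0357 times that of zar1, 0.0240 times that of bmp15, 0.0382 times that of gdf9, 0.00406 times that of zp2.5 and 0.180 times that of figla. All 8 members passed the count filter and 7 were called lower (all but figla), where 23.0% of all genes tested were called lower. For the same 7 every scoliotic fish lay below every AB fish. How many of all genes separated in this way was not counted, here or in the comparisons below. The log2 fold changes ran from -8.01 for zp2.5 (standard error 1.13) to -2.55 for figla (standard error 1.56), with a median of -4.95 against 0.0244 over all genes. The count changed when a fish was left out. It was 2 without any one of the AB fish, 3 without scoliotic fish 3, 7 without scoliotic fish 2 and 8 without scoliotic fish 1. Such a fit also has fewer fish, and this was not told apart from the part of the fish left out, here and below. The share of all genes called was counted only for the main edgeR fits. Counts with a fish or pool left out, or by DESeq2, have no such share beside them, here and below. The log2 fold changes stayed below 0 for all 8 in each of these fits.

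Non-scoliotic fish had 0.0979 times the mean AB level of zp3b, 0.0921 times that of h1m, 0.0743 times that of buc, 0.0909 times that of zar1, 0.0516 times that of bmp15, 0.0490 times that of gdf9, 0.0786 times that of zp2.5 and 0.288 times that of figla. Only bmp15 and gdf9 were called lower by edgeR, 2 of 8 members, where 21.9% of all genes tested were called lower. For 7 of the 8 every non-scoliotic fish lay below every AB fish. This separation was not counted over all genes, so it is not read as a result about the members. DESeq2 called 3, with buc added. The log2 fold changes were -4.36 for gdf9 (standard error 1.02) and -4.31 for bmp15 (standard error 1.16), and the median over the 8 was -3.62 against 0.0354 over all genes. Without non-scoliotic fish 1 or fish 2, 7 members were called, and without non-scoliotic fish 3 or any one of the AB fish 1 member was.

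The kif7co63/+ fish stood much closer to AB. They had 0.691 times the mean AB level of zp3b, 0.648 times that of h1m, 0.686 times that of buc, 0.706 times that of zar1, 0.568 times that of bmp15 and 0.614 times that of gdf9, while zp2.5 was at 1.26 and figla at 2.57 times the AB mean. Without kif7co63/+ fish 3 the direction of zp2.5 turned, with a log2 fold change of -0.55 against 0.33 (standard error 0.49) with all fish. bmp15, buc, h1m and zar1 were called lower, 4 of 8, where 17.6% of all genes tested were called lower, and no member was called higher. For 6 members every kif7co63/+ fish lay below every AB fish, and for figla every one lay above, a separation not counted over all genes. The log2 fold changes of the 4 called members ran from -0.81 for bmp15 (standard error 0.22) to -0.50 for zar1 (standard error 0.16), and figla had 1.36 (standard error 0.73). The median over the 8 was -0.54, against 0.0265 over all genes. These calls changed when a fish was left out. Without any one of the AB fish or without kif7co63/+ fish 1, edgeR called 0 members. It called 2 without kif7co63/+ fish 2 and 6 without kif7co63/+ fish 3. The calls also moved with the method, with 0 called when all 18 libraries were in 1 fit and 6 called by DESeq2.

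Set against kif7co63/+, every scoliotic fish was lower than every heterozygous fish for all 8 members, a separation not counted over all genes. bmp15, gdf9, zp2.5 and figla were called lower by edgeR, 4 of 8, where 18.5% of all genes tested were called lower, and DESeq2 called 6 (bmp15, buc, h1m, zar1, zp2.5 and zp3b). The log2 fold changes ran from -8.27 for zp2.5 (standard error 1.35) to -3.85 for figla (standard error 1.25), with a median of -4.33 against -0.019 over all genes. Without scoliotic fish 1 or fish 2, 8 or 7 members were called, and without scoliotic fish 3 or any one of the kif7co63/+ fish 2 were. The scoliotic fish enter 3 of these comparisons and the AB fish 3, so the comparisons share fish.

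**Figure D3:**
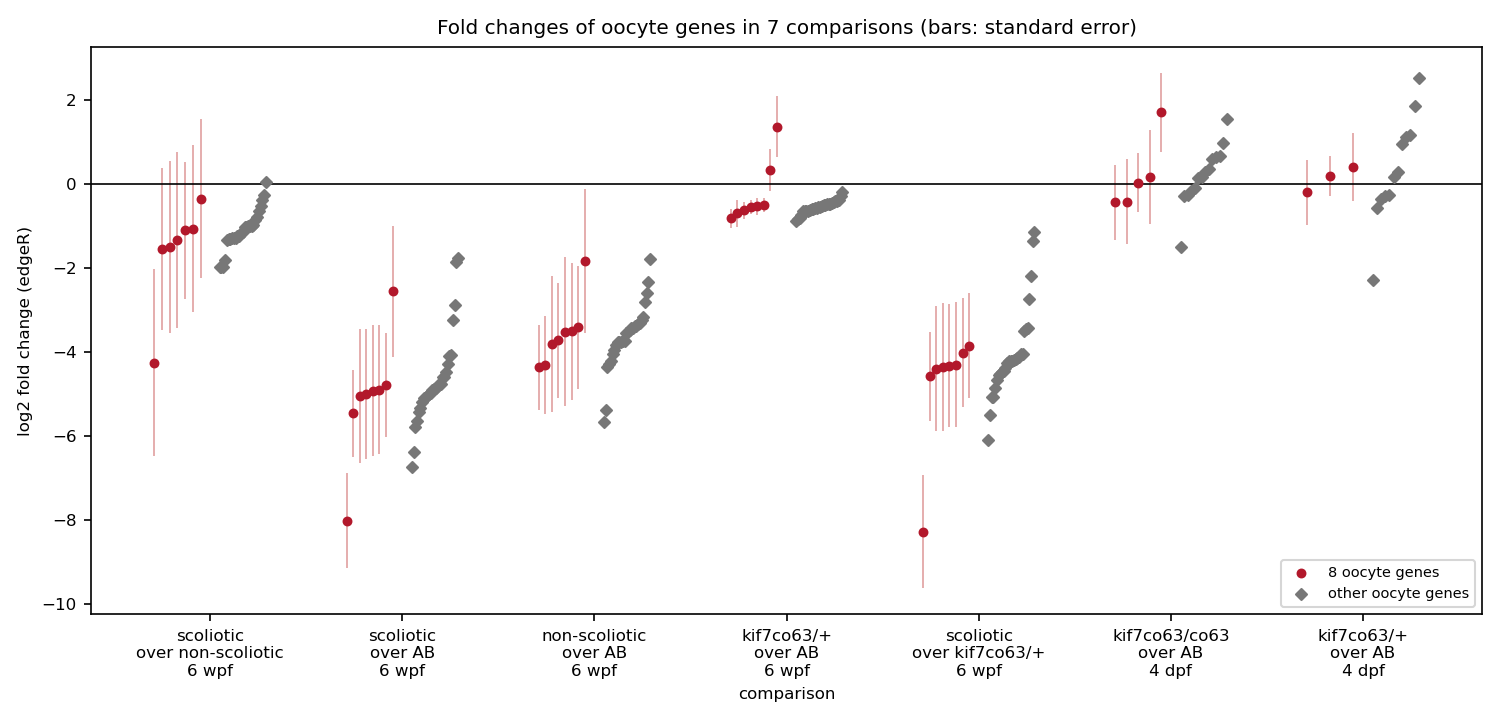
Log2 fold changes from edgeR of the 8 oocyte genes (circles, bars are the standard error) and of other oocyte genes (diamonds) in 7 comparisons, each dot a gene that passed the count filter, sorted by value within a list. The medians of the 8 genes were -4.95 and -3.62 for scoliotic and non-scoliotic fish over AB and -0.54 for kif7co63/+ over AB at 6 wpf. At 4 dpf fewer of them passed the count filter. The medians over AB were then 0.03 over 5 genes for kif7co63/co63 and 0.19 over 3 genes for kif7co63/+.

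A wider list of 36 symbols known from oocytes and eggs, of which 30 were found as 31 identifiers, showed the same layout. It was chosen with earlier results of these data known, as were the other gene lists below. Its levels and counts of calls are therefore descriptions of the same fish and no separate support. Summed over the list, scoliotic fish had 979, 74.9 and 139 CPM, non-scoliotic fish 2066, 55.8 and 441 CPM, kif7co63/+ fish 6259, 4673 and 8431 CPM and AB fish 9088, 9576 and 9823 CPM. In each homozygous group fish 1 was the highest for all 28 genes with a read in the group. mos, btg4 and zpcx were at or near 0 reads in all fish, and whether this comes from the counting was not tested.

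Of the 28 genes that passed the count filter against AB, 17 were called lower and 0 higher in scoliotic fish (median log2 fold change -4.87), where 23.0% of all genes tested were called lower. In non-scoliotic fish 10 were called lower and 0 higher (median -3.53, with 21.9% of all genes called lower), and in kif7co63/+ fish 10 lower and 0 higher (median -0.54, with 17.6% of all genes called lower). DESeq2 called 21, 11 and 19 of the 28 in the same 3 comparisons, with no share of all genes counted for it. Between scoliotic and non-scoliotic fish 0 of 27 were called by edgeR, with 0 at an unadjusted p under 0.05 and 0 by DESeq2, 26 had a log2 fold change below 0 and the median was -1.14, with 0.38% of all genes called. Scoliotic over kif7co63/+ gave 13 lower of 28 (median -4.21, with 18.5% of all genes called lower). These counts also changed when a fish was left out. Against AB the scoliotic count was 28 without fish 1, 27 without fish 2, 10 without fish 3 and 10 without any one of the AB fish. For non-scoliotic fish the counts were 21 when fish 1 was left out, 28 for fish 2, 4 for fish 3 and 6 for any one of the AB fish. For kif7co63/+ fish they were 3 when fish 1 was left out, 5 for fish 2, 24 for fish 3, 4 for AB fish 1 or 2 and 3 for AB fish 3. Against kif7co63/+ the scoliotic count was 28 or 27 when scoliotic fish 1 or 2 was left out. It also fell below the 13 of all fish when another fish was left out, as the range given further below shows.

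Named by role, the egg coat gene zp3c had 8.74, 0.258 and 0.732 CPM in scoliotic fish and 16.4, 0.0954 and 2.78 CPM in non-scoliotic fish, against 159, 137 and 137 CPM in kif7co63/+ fish and 235, 272 and 261 CPM in AB fish, and was called lower than AB in all 3 groups. wee2, which encodes an oocyte kinase that holds the meiotic arrest in mammals, had 2.09, 0 and 0 CPM in scoliotic fish and 3.31, 0 and 0.949 CPM in non-scoliotic fish, against 46.6, 27.9 and 67.3 CPM in kif7co63/+ fish and 74.5, 79.6 and 58.7 CPM in AB fish. It was called lower in both homozygous groups and not in kif7co63/+ fish, a difference between groups that was not tested. nanog, a maternal regulator of genome activation, had 39.7, 0 and 3.33 CPM in scoliotic fish, 76.9, 0.0954 and 10.5 CPM in non-scoliotic fish, 239, 178 and 348 CPM in kif7co63/+ fish and 384, 408 and 401 CPM in AB fish.

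The RNA-binding genes rbpms2b and rbpms2a, which act in oocytes and are also expressed in the heart and other tissues, had a narrower range. rbpms2b had 34.4, 28.9 and 23.4 CPM in scoliotic fish, 57.9, 19.2 and 27.2 CPM in non-scoliotic fish, 138, 89.9 and 167 CPM in kif7co63/+ fish and 195, 194 and 218 CPM in AB fish, and it was at 29.8 to 49.0 CPM in the 4 dpf pools. Its log2 fold change against AB was -2.88 in scoliotic fish (standard error 0.15), -2.59 in non-scoliotic fish (standard error 0.39) and -0.62 in kif7co63/+ fish (standard error 0.20), and it was called lower in all 3.

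The genes whose pattern over the 12 fish was most like that of the 8 members were sought among 23651 genes, by the Pearson correlation of log2 CPM with the mean of the members' standardised log2 CPM. The 10 highest were caprin2, cpeb1b, tuba4l, si:ch211-223m11.2, cyp11a1, si:ch211-167j6.3, fbxo43, tatdn2, zgc:113424 and zp3d.2, with r from 0.994 to 0.996. caprin2 had 48.2, 0.924 and 3.12 CPM in scoliotic fish, 115, 0.802 and 12.4 CPM in non-scoliotic fish, 329, 206 and 468 CPM in kif7co63/+ fish and 479, 492 and 494 CPM in AB fish. cyp11a1, which encodes the enzyme that starts steroid synthesis from cholesterol and is also a maternal transcript in zebrafish, had 18.6, 0.279 and 1.25 CPM in scoliotic fish, 49.6, 0.344 and 4.56 CPM in non-scoliotic fish, 110, 92.6 and 199 CPM in kif7co63/+ fish and 170, 189 and 196 CPM in AB fish. The 10 genes were picked for this pattern, and none of them was among the 10 highest by Spearman's rho. In all, 269 genes other than the members had r over 0.95, and of the 28 genes of the wider oocyte list that were kept, 25 did, with a median r of 0.979 against -0.0301 over all genes. The lowest of the 28 was rbpms2a, at 0.873.

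**Figure D4:**
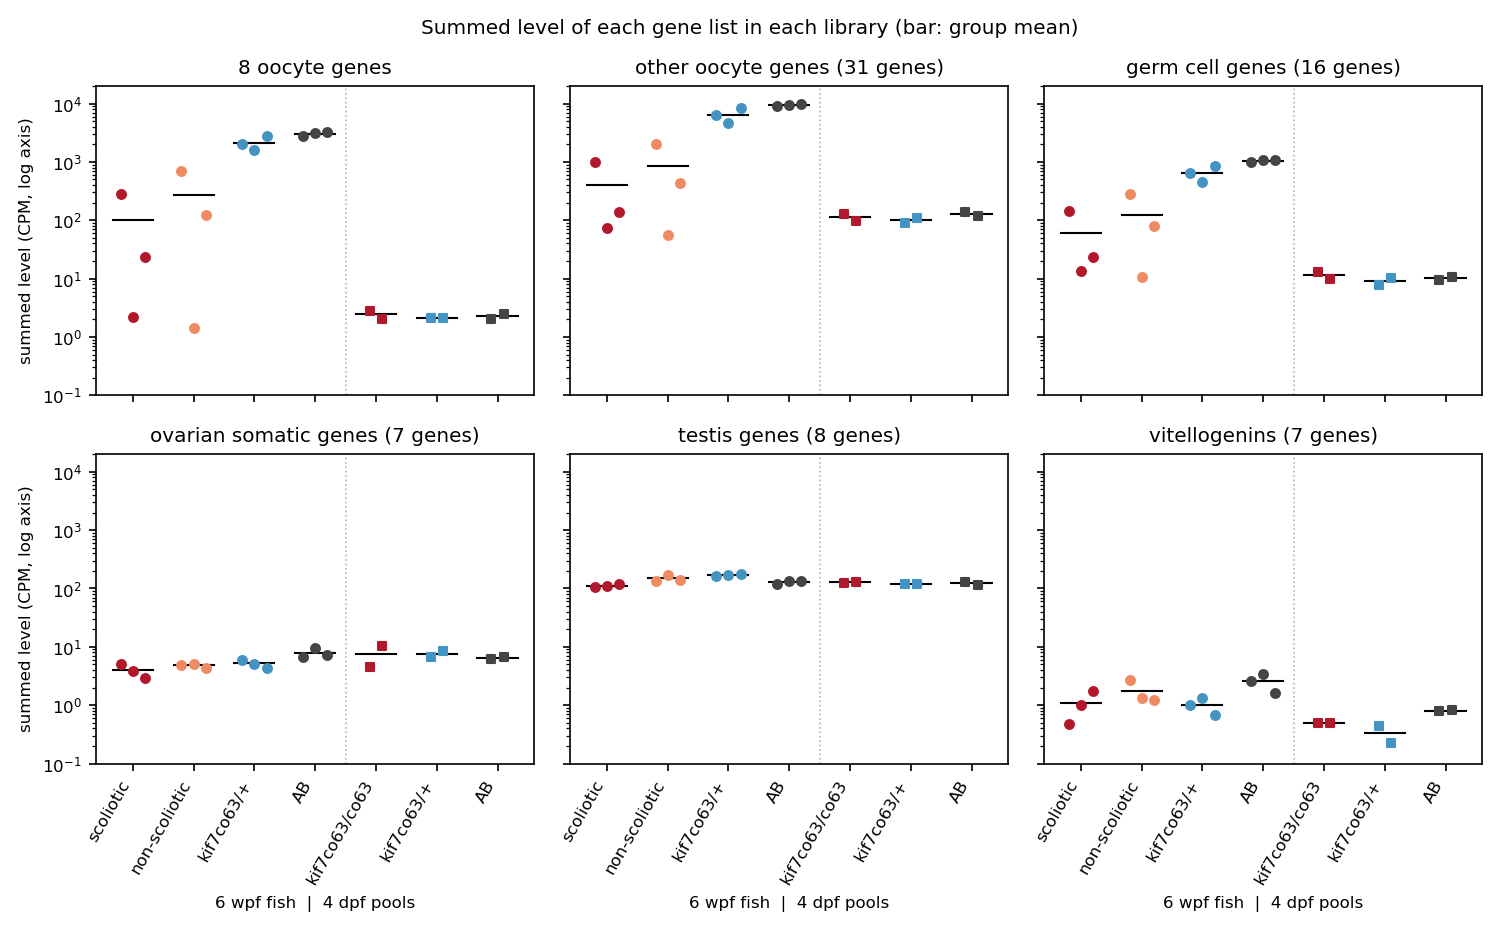
Summed level of 6 gene lists in every library, in CPM on a log axis, with 6 wpf fish as circles left of the dotted line, 4 dpf pools as squares right of it and bars for group means. The oocyte and germ cell sums vary together across the homozygous fish, while the sums of ovarian somatic genes (2.95 to 10.5 CPM), testis genes (107 to 175 CPM) and vitellogenins (0.227 to 3.47 CPM) span narrower ranges. The pools of 4 dpf had ovarian somatic sums of 4.58 to 10.5 CPM and testis sums of 115 to 132 CPM. Neither sum was therefore read as an amount of gonad tissue. Within the ovarian somatic list, hsd17b1 and inha were higher in every AB fish than in any other fish of 6 wpf. For foxl2b, lhcgr, foxl2a, cyp19a1a and fshr the AB fish overlapped with other fish.

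The summed level of germ cell genes, of which 16 of 17 symbols were found, had the same order of groups as that of the oocyte genes. It was 146, 13.7 and 23.4 CPM in scoliotic fish, 286, 10.8 and 79.3 CPM in non-scoliotic fish, 656, 455 and 848 CPM in kif7co63/+ fish and 1010, 1084 and 1071 CPM in AB fish. piwil1, a germ cell protein of the piRNA pathway and the most abundant of the list, had 33.1, 1.504 and 5.27 CPM in scoliotic fish and 63.4, 1.45 and 18.8 CPM in non-scoliotic fish, against 148, 97.0 and 144 CPM in kif7co63/+ fish and 211, 229 and 223 CPM in AB fish. ddx4, which encodes the germ cell helicase Vasa, had 23.3, 1.83 and 2.34 CPM in scoliotic fish, 43.5, 1.03 and 13.2 CPM in non-scoliotic fish, 78.2, 45.0 and 87.1 CPM in kif7co63/+ fish and 138, 140 and 148 CPM in AB fish. It was above 0 in each of the 12 fish, including scoliotic fish 2 and non-scoliotic fish 2, in which the 8 members together had 102 and 75 reads.

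The 7 ovarian somatic genes summed to 2.95 to 5.12 CPM in scoliotic fish, 4.396 to 5.02 CPM in non-scoliotic fish, 4.404 to 6.05 CPM in kif7co63/+ fish and 6.69 to 9.69 CPM in AB fish. The defining granulosa cell marker cyp19a1a, the ovarian aromatase, was at 0 to 0.300 CPM in the 12 fish. foxl2b was the most abundant of the list, at 1.74 to 4.03 CPM in the fish and 3.37 to 7.78 CPM in the 4 dpf pools. hsd17b1 had 1.63 to 1.96 CPM in AB fish, 0.295 to 0.708 CPM in kif7co63/+ fish and 0.0472 to 0.321 CPM in homozygous fish. For inha the AB fish had 0.624 to 1.45 CPM and all other fish 0.0674 to 0.278 CPM. For foxl2b, lhcgr, foxl2a, cyp19a1a and fshr the AB fish overlapped with other fish. The 8 testis genes summed to 107 to 117 CPM in scoliotic fish, 135 to 171 CPM in non-scoliotic fish, 164 to 175 CPM in kif7co63/+ fish and 119 to 133 CPM in AB fish. By the mean over the 12 fish hsd11b2, which other tissues also express, was the most abundant of them, though not in every fish. sox9a of the same list was at 21.2 to 49.0 CPM in the fish and 41.8 to 72.3 CPM in the 4 dpf pools. amh, a Sertoli cell hormone, had 1.75, 1.10 and 5.55 CPM in scoliotic fish, 1.85, 9.58 and 2.06 CPM in non-scoliotic fish, 5.88, 7.42 and 6.32 CPM in kif7co63/+ fish and 0.572, 1.37 and 0.815 CPM in AB fish, and dmrt1 stayed at 0.115 to 2.3 CPM. The 7 vitellogenins found, yolk proteins made by the liver under oestrogen, summed to no more than 3.47 CPM in any fish, and vtg1 to no more than 0.573 CPM. The part of these cells in the levels of the members was not tested.

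At 4 dpf the members were low in all 6 pools. Their summed level was 2.07 to 2.81 CPM in kif7co63/co63 pools, 2.08 to 2.13 CPM in kif7co63/+ pools and 2.06 to 2.49 CPM in AB pools, and zp3b was the highest in each pool. zp3b had 83 and 34 reads in the kif7co63/co63 pools, 55 and 71 reads in the kif7co63/+ pools and 60 and 63 reads in the AB pools. h1m had 30 and 27 reads in the kif7co63/co63 pools, 4 and 8 in the kif7co63/+ pools and 13 and 6 in the AB pools. It was the only member for which both homozygous pools lay above both AB pools. For zp2.5 both homozygous pools, with 4 reads each, lay below both AB pools, with 9 and 11 reads. How many of all genes separated in either way was not counted. buc had at most 4 reads and figla at most 1 read in any pool.

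Scoliotic fish 2 lay within the range of these pools, with a summed member level of 2.19 CPM, and non-scoliotic fish 2 below it, with 1.43 CPM. Single members differed from the sum. In scoliotic fish 2, buc with 24 reads was above all pools and bmp15 with 4 reads was below all pools. Between kif7co63/co63 and AB pools edgeR called 0 of the 5 members that passed the count filter, with 0 at an unadjusted p under 0.05 and 0 called by DESeq2, where 0.509% of all genes tested were called in either direction, and the log2 fold changes ran from -0.43 for zar1 (standard error 0.90) to 1.70 for h1m (standard error 0.94). The sign turned for zp3b without kif7co63/co63 pool 1 (-0.84), for gdf9 without kif7co63/co63 pool 2 (-0.87) and for bmp15 without AB pool 2 (0.14), while h1m stayed above 0 without any one pool. Between kif7co63/+ and AB pools edgeR called 0 of 3 members, with 0 at an unadjusted p under 0.05 and 0 called by DESeq2, where 6.21% of all genes tested were called in either direction, and the signs of zp3b, zar1 and bmp15 each turned without 1 of the pools. Of the wider oocyte list, 0 of 14 and 0 of 12 genes were called in the same 2 comparisons. For kif7co63/+ pools 2 of the 12 had an unadjusted p under 0.05, for kif7co63/co63 pools 0 of the 14 had, and DESeq2 called 0 in both. Without AB pool 2, edgeR called 3 of the wider list between kif7co63/+ and AB pools.

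From the AB fish of 6 wpf against the AB pools of 4 dpf, all 8 members were called higher, where 30.3% of all genes tested were called higher. zp3b averaged 1046 ± 69.6 CPM in AB fish (SD, n = 3) and 1.07 ± 0.174 CPM in AB pools (SD, n = 2). buc had no read in either AB pool, and with a floor of 3 reads in each pool its level was at least 11323-fold higher in AB fish. For figla, also without a read in the AB pools, the bound was at least 110-fold higher. With these 2 genes at their bounds, the median log2 fold change of the 8 members was 9.45, against -0.000972 over all genes tested, and all 28 genes tested of the wider list were called higher as well. Age cannot be told apart here from the change between pooled embryos and single fish.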

How the data were processed

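RNA of single fish (6 wpf) or pools of 20 embryos (4 dpf) was sequenced. The counts are whole reads per gene, deposited by the authors without normalization. The submitters' processing notes name fastp, HISAT2, StringTie, featureCounts, DESeq2 and GRCz11, and the strand setting of the counting is not given in the sources used here. A second deposited table, the authors' own comparison of scoliotic with kif7co63/+ fish, holds fold changes, p-values and 18 per-sample columns, none of them used.

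Count columns were assigned to scoliotic and non-scoliotic fish by the sample labels, which the study's own sample key matches. The legend of one of its plots marks scoliotic fish with the letter S, which the column names carry for the non-scoliotic fish. Every value given for these groups rests on the assignment by the sample labels. Genes were matched by the symbols of the count table. The members and all gene lists were chosen with earlier results of these data known. Each of 8 comparisons was fitted on its 2 groups with edgeR 4.0.16 in R 4.3.3 (TMM, glmQLFit, glmQLFTest, and filterByExpr at its settings of 10 for the count and 15 for the total), Benjamini-Hochberg adjustment over all genes tested and a threshold of 0.05. The fits were also run on simulated counts with 1 small spread for all genes. The members spread far more widely in homozygous fish, so that run cannot show how the calls behave there. Likeness used log2 CPM with a prior count of 2. Genes named are the members, the 10 most alike and genes of the wider oocyte list. The most abundant and best known gene of each other list was named as well. Some further genes of the ovarian somatic, testis and germ cell lists, hsd17b1 and inha among them, were named outside this rule. mos, btg4, zpcx and the tissue markers were named after their values were seen. Alternatives were DESeq2 1.42.0, RLE scaling, no count filter, 1 fit of all libraries, a block on the replicate number, and each library left out in turn. No 2 libraries of a group agreed within sampling noise. The p-values behind the calls weigh a difference between groups against the spread between fish or pools, estimated with information shared across genes. Figures were drawn with matplotlib 3.10.9.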

Additional observations from a re-analysis of the deposited data

Results flagged for a closer look

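h1m was the one member for which every kif7co63/co63 library lay below every AB library at 6 wpf and above every AB library at 4 dpf. Its mean level in kif7co63/co63 fish of 6 wpf, scoliotic and non-scoliotic together, was 0.0621 times that of AB fish, and each of the 6 homozygous fish lay below each AB fish. At 4 dpf its mean level in the kif7co63/co63 pools was 3.31 times that of the AB pools, and both homozygous pools lay above both AB pools. edgeR did not call the difference at 4 dpf (log2 fold change 1.70, standard error 0.94). At 6 wpf it called h1m lower than AB in scoliotic fish and not in non-scoliotic fish. The difference between the ages was not tested, and how many of all genes separated in this way was not counted. The values at 4 dpf rest on 30 and 27 reads in the kif7co63/co63 pools and 13 and 6 reads in the AB pools.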

How the results depend on the processing

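With each fish or pool left out in turn, the members called ranged from 2 to 8 for scoliotic over AB (7 with all fish), from 1 to 7 for non-scoliotic over AB (2 with all fish), from 0 to 6 for kif7co63/+ over AB at 6 wpf (4 with all fish) and from 2 to 8 for scoliotic over kif7co63/+ (4 with all fish). For the wider oocyte list the ranges were 10 to 28, 4 to 28, 3 to 24 and 9 to 28 in the same order, and 0 to 3 for kif7co63/+ over AB at 4 dpf. The share of all genes called in these fits was not counted. For kif7co63/+ over AB at 6 wpf, all 18 libraries in 1 fit gave 0 members and 1 gene of the wider list, and DESeq2 gave 6 members and 19 genes of the wider list; the cause was not tested. RLE scaling, the absence of a count filter and the replicate block left every count within 1.5 times, and RLE scaling moved the median of all genes by at most 0.0307 (log2). Deviations of fish with the same label number had correlations of 0.436, 0.293 and 0.0378 between scoliotic and non-scoliotic fish. Those of fish with different label numbers ran from -0.383 to 0.0761. The deviations sum to 0 within a group, so these 2 sets of values are not independent of each other. The numbers were not taken as pairs in the main fits, and whether fish of the same number share an origin was not tested. With the replicate number as a block, 7, 2, 5 and 6 members were called in those 4 comparisons at 6 wpf, 16, 9, 14 and 13 genes of the wider list, and 0 between scoliotic and non-scoliotic fish. The kif7co63/co63 and AB pools of 4 dpf with the same number had a correlation of -0.127. Those with different numbers had 0.127, which with 2 pools per group follows from the first value. The crossed pairing, added after seeing the data, gave 0 calls. A level of up to 3 reads could not be told from 0 at these depths.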

Other observations

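Within the germ cell list, tdrd1 and tdrd5 were higher in kif7co63/+ fish than in AB fish, as figla was among the members. tdrd1, a Tudor protein of the piRNA pathway, had 0.202, 0.430 and 0.945 CPM in scoliotic fish, 17.2, 0.382 and 4.42 CPM in non-scoliotic fish, 1.79, 3.04 and 49.4 CPM in kif7co63/+ fish and 0.502, 0.657 and 0.357 CPM in AB fish. tdrd5, another Tudor protein of germ cells, had 7.39, 0.408 and 0.142 CPM in scoliotic fish, 14.0, 0.191 and 3.45 CPM in non-scoliotic fish, 28.3, 22.7 and 36.2 CPM in kif7co63/+ fish and 18.4, 16.9 and 21.0 CPM in AB fish. For both genes all kif7co63/+ fish lay above all AB fish, although below them in the summed level of the germ cell list, and for tdrd5 the homozygous fish lay below both other groups. cyp17a1, a steroid synthesis gene of the testis list that embryos also express, had 7.17, 1.72 and 6.14 CPM in scoliotic fish, 16.3, 4.52 and 2.24 CPM in non-scoliotic fish, 29.1, 24.1 and 63.3 CPM in kif7co63/+ fish and 56.7, 69.0 and 70.5 CPM in AB fish. These 3 genes of the other lists were singled out after their values were seen, and no test was run on them.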
